A study of Oikopleura dioica with 14 samples.

Results

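The genes described are the 200 identifiers whose lowest level over all 14 libraries was highest, out of 17212 identifiers counted in whole Oikopleura dioica. A level is given in CPM, the count of an identifier per 1000000 counts of its library. A numbered range of 137 identifiers was left out when the genes were chosen, and 3 of these would otherwise have ranked among the 200. The last gene taken in, GSOIDG00018034001, had a minimum of 1.842 CPM and the first one left outside, GSOIDG00003020001, had 1.841 CPM. These minima stood for 27 and 24 counts, so nothing in the data separates the genes just inside from those just outside. The genes were selected on their measured levels in all 14 libraries, and every level and spread below is therefore a description without a test. The same libraries give the calls and the counts of genes without overlap, so the share of all genes printed beside each count is a background and nothing is read from the difference. For single genes, overlap between groups is stated on CPM of total counts. Where TMM or RLE scaling, the factors of edgeR and DESeq2 that rescale each library as a whole, changed it, this is said. Overlap under these scalings used factors from all 14 libraries, while edgeR's fits within a stage used TMM factors of that stage alone.

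Oikopleura dioica is a planktonic tunicate, and Pax37b is one of its Pax3/7 genes, which encode paired-box transcription factors. The libraries came from animals with both copies of Pax37b mutant (Pax37b-/-) and from wild-type animals (Pax37b+/+), all offspring of heterozygous parents. Animals were genotyped one by one, and those of like genotype were pooled, at 4, 6 or 8 hours after fertilization (hpf), so each library is a pool of whole animals. There were 2 mutant and 2 wild-type libraries at 4 hpf, 3 mutant and 2 wild-type at 6 hpf, and 3 mutant and 2 wild-type at 8 hpf. The labels number them as biological replicates without tying a number to its own cross, so the p-values measure the spread between these pools. In whole animals, fewer cells that use a gene and less of its RNA per cell cannot be told apart.

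Genes used by every cell at every time, often called housekeeping genes, supply ribosomes, translation, energy metabolism and the cytoskeleton, and their messengers usually hold steady shares of the RNA of an embryo. In O. dioica many genes lie in operons, groups of neighbouring genes transcribed as a unit and separated by trans-splicing. A CPM value is a share of the library, so a rise of some genes lowers the share of all others. The files give identifiers without names and none of the 200 matched the reference gene table, so no function is given to any gene here. CPM were not divided by transcript length, which the files do not hold, and levels of different genes are not ranked against each other as amounts of RNA.

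The label "abundant in every library" held for a small part of the 200 genes. Of them 30 stayed at 100 CPM or more in all 14 libraries, 48 at 50 CPM or more and 82 at 10 CPM or more. The median of their lowest levels was 6.48 CPM, while the median of their median levels was 409 CPM and that of their highest levels 1545 CPM. Most of these genes were thus well expressed in a typical library and sparse in at least 1. In counts, 87 of the 200 had 100 or more in every library, and 89 of all 17212 identifiers did. All 200 passed the filter on low counts in every comparison.

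**Figure D1:**
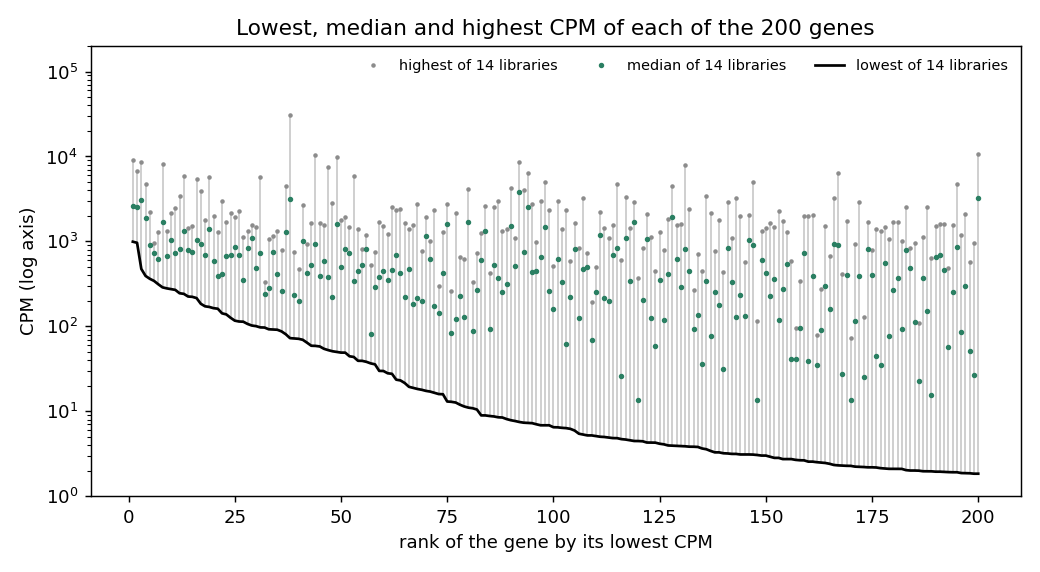
Lowest (black line), median (green) and highest (grey) CPM over the 14 libraries for each of the 200 genes, on a log axis, with genes ordered by their lowest CPM. The line falls from 992 CPM at the first gene to 1.84 CPM at the last, while the medians stay mostly between 100 and 1000 CPM.

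Together the 200 genes held a similar share of the counts in every library. At 4 hpf they took 14.3% and 13.0% (mutants) and 14.04% and 15.8% (wild type). At 6 hpf they took 15.2%, 14.9% and 13.7% (mutants) and 15.5% and 14.8% (wild type). At 8 hpf they took 17.3%, 13.8% and 15.74% (mutants) and 17.0% and 17.7% (wild type). The genotypes overlapped at the first 2 stages, and at the last the range of the mutants spanned the lower wild-type value. The share of each library's own 200 most abundant identifiers varied far more, from 25.6% to 76.2%. Between 35 and 65 of the 200 genes stood in a library's own top 200, 52 of them stood in none, and 0 stood there in all 14.

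How that share was divided among the genes differed between libraries. The median gene was at 250 and 308 CPM in mutants and 328 and 380 CPM in wild type at 4 hpf, both mutant libraries being the lower. At 6 hpf it was at 483, 517 and 488 CPM in mutants and 377 and 507 CPM in wild type. At 8 hpf it was at 273, 332 and 37.7 CPM in mutants and 488 and 443 CPM in wild type. Mutant libraries thus lay below wild-type libraries at 4 hpf and again at 8 hpf, and overlapped them at 6 hpf, and the third mutant library of 8 hpf lay far below all others. With TMM scaling the genotypes overlapped at 4 hpf and with RLE scaling at 4 and 8 hpf.

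In this outlying library (mutant replicate 3 at 8 hpf), 78 of the 200 genes were under 10 CPM and 48 were at 1000 CPM or more. In the other 13 libraries 3 to 38 genes were under 10 CPM. The same library had 781 identifiers at 100 counts or more, the fewest of the 14, with 1799 to 4645 in the others. It set the minimum of 61 of the 200 genes, and the 8 hpf libraries together set 135 of the minima, against 51 at 6 hpf and 14 at 4 hpf. Its total, 10960344 counts, was not low for the series, which ran from 2803712 to 3941906 counts at 4 hpf and from 10350791 to 15682947 at 6 and 8 hpf. With every library thinned to 2803712 counts, 133 of the 200 genes had 20 counts or more in it, against 171 to 199 in the others. When the genes were chosen without it, 168 of the 200 remained.

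**Figure D2:**
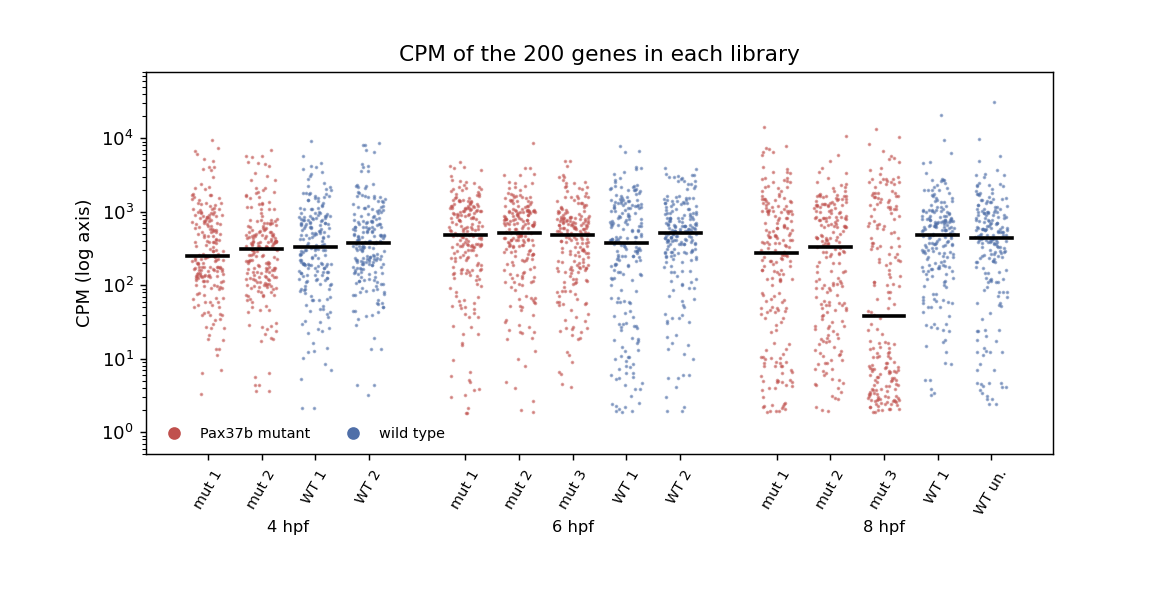
CPM of each of the 200 genes (points, log axis) in every library, mutants in red and wild type in blue, with the median as a black bar; un. marks the wild-type library without a matching number. Medians lie between 250 and 517 CPM except in the third mutant library at 8 hpf, at 37.7 CPM.

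Pools of the same group differed little at 4 hpf and more at the later stages. The median gene differed between the 2 mutant pools at 4 hpf by 0.61 on the log2 scale, and between the 2 wild-type pools by 0.49. At 6 hpf the 3 mutant pairs differed by 0.81 to 1.2 and the wild-type pair by 1.45. At 8 hpf the mutant pairs differed by 1.74 to 2.54 and the wild-type pair by 0.93. Over 16-fold differences within a pair were seen for 1 gene in each 4 hpf pair, for 7 to 24 genes in the 6 hpf pairs, and for 54 to 76 genes in the 8 hpf mutant pairs against 23 in the 8 hpf wild-type pair. For 135 of the 200 genes the spread within groups (pooled SD of log2 CPM) exceeded the spread between the 6 group means. The 4 hpf libraries were the shallowest of the series, so depth moved with stage, and its part in these differences was not tested.

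Few of the genes kept a steady level. The highest CPM was under 5 times the lowest for 4 genes, under 10 times for 14 and under 100 times for 83, with a median of 155. GSOIDG00016911001 varied least, with an SD of 0.43 in log2 CPM over the 14 libraries. It was at 797 and 467 CPM in mutants and 603 and 676 CPM in wild type at 4 hpf. At 6 hpf it was at 958, 771 and 851 CPM in mutants and 865 and 942 CPM in wild type, and at 8 hpf at 921, 646 and 342 CPM in mutants and 644 and 532 CPM in wild type. Mutant and wild-type libraries overlapped at each stage, while with RLE scaling both mutant libraries were the higher at 4 hpf. Its counts were fractional in all 14 libraries, which kallisto gives where reads are divided between similar transcripts, so its level is uncertain.

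GSOIDG00016651001 came next, with an SD of 0.50 and no fractional counts. Its levels were 238 and 239 CPM in mutants and 289 and 296 CPM in wild type at 4 hpf. They were 334, 286 and 162 CPM in mutants and 254 and 185 CPM in wild type at 6 hpf, and 196, 96.8 and 201 CPM in mutants and 325 and 148 CPM in wild type at 8 hpf. The genotypes were apart at 4 hpf, with mutants lower, and overlapped at 6 and 8 hpf. Under TMM or RLE scaling they overlapped at 4 hpf too, and under TMM scaling mutants were lower at 8 hpf.

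At the other end GSOIDG00018034001, the last gene taken in, had the widest spread, an SD of 4.42. It was at 9337 and 3400 CPM in mutants and 5696 and 7986 CPM in wild type at 4 hpf. At 6 hpf it was at 1.84, 669.5 and 4933 CPM in mutants and 7733 and 3159 CPM in wild type, and at 8 hpf at 3.97, 10727 and 8.30 CPM in mutants and 947 and 3169 CPM in wild type. Its lowest and its highest value were thus both found in mutant libraries, 5823-fold apart. GSOIDG00005917001 followed with an SD of 4.14. It ranged from 2.31 CPM in a wild-type library at 6 hpf to 6401 CPM in a mutant library at 8 hpf.

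Levels of the genes with the highest minimum were high everywhere but did not stand still. GSOIDG00014645001 never fell under 992 CPM. It was at 6599 and 6814 CPM in mutants and 9053 and 6904 CPM in wild type at 4 hpf, at 3925, 2568 and 2680 CPM in mutants and 3964 and 2375 CPM in wild type at 6 hpf, and at 2561, 1036 and 2531 CPM in mutants and 1062 and 992 CPM in wild type at 8 hpf. At 4 hpf both mutant libraries were below both wild-type libraries. Every 4 hpf library was above every library of the later stages, and the libraries of 6 and 8 hpf overlapped. Under TMM or RLE scaling the 4 and 6 hpf libraries overlapped, as did the genotypes at 4 hpf, and edgeR's log2 change of 6 over 4 hpf was 0.47 (SE 1.16), the other sign than the CPM. Under TMM scaling every 8 hpf library was below every 6 hpf library. GSOIDG00016675001 was higher in every 6 hpf library than in any 4 hpf library under all 3 scalings, with 1440 and 969 CPM in mutants and 1452 and 1516 CPM in wild type at 4 hpf, and 2510, 3959 and 3180 CPM in mutants and 6665 and 3842 CPM in wild type at 6 hpf. At 8 hpf it was at 1324, 3494 and 963 CPM in mutants and 2631 and 3220 CPM in wild type. edgeR's log2 change of 6 over 4 hpf was 3.22 (SE 1.29, adjusted p = 0.0868).

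GSOIDG00004108001 was at 3638 and 1975 CPM in mutants and 2774 and 3610 CPM in wild type at 4 hpf, and at 4791, 2216 and 1531 CPM in mutants and 1777 and 2806 CPM in wild type at 6 hpf. At 8 hpf it was at 419, 527 and 1582 CPM in mutants and 392 and 607 CPM in wild type. The genotypes overlapped at every stage, except that with RLE scaling mutants were higher at 4 hpf. GSOIDG00008791001, the third by its minimum, was at 7296 and 5783 CPM in mutants and 4132 and 8697 CPM in wild type at 4 hpf, and at 498, 3192 and 2959 CPM in mutants and 2209 and 474 CPM in wild type at 6 hpf. At 8 hpf it was at 6431, 3933 and 2813 CPM in mutants and 2486 and 2304 CPM in wild type. The genotypes overlapped at 4 and 6 hpf and lay apart at 8 hpf, with mutants higher. Under TMM or RLE scaling they overlapped at 8 hpf, where edgeR's log2 change was 0.08 (SE 1.69), and with RLE scaling mutants were higher at 4 hpf. It had fractional counts in 13 of 14 libraries.

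**Figure D3:**
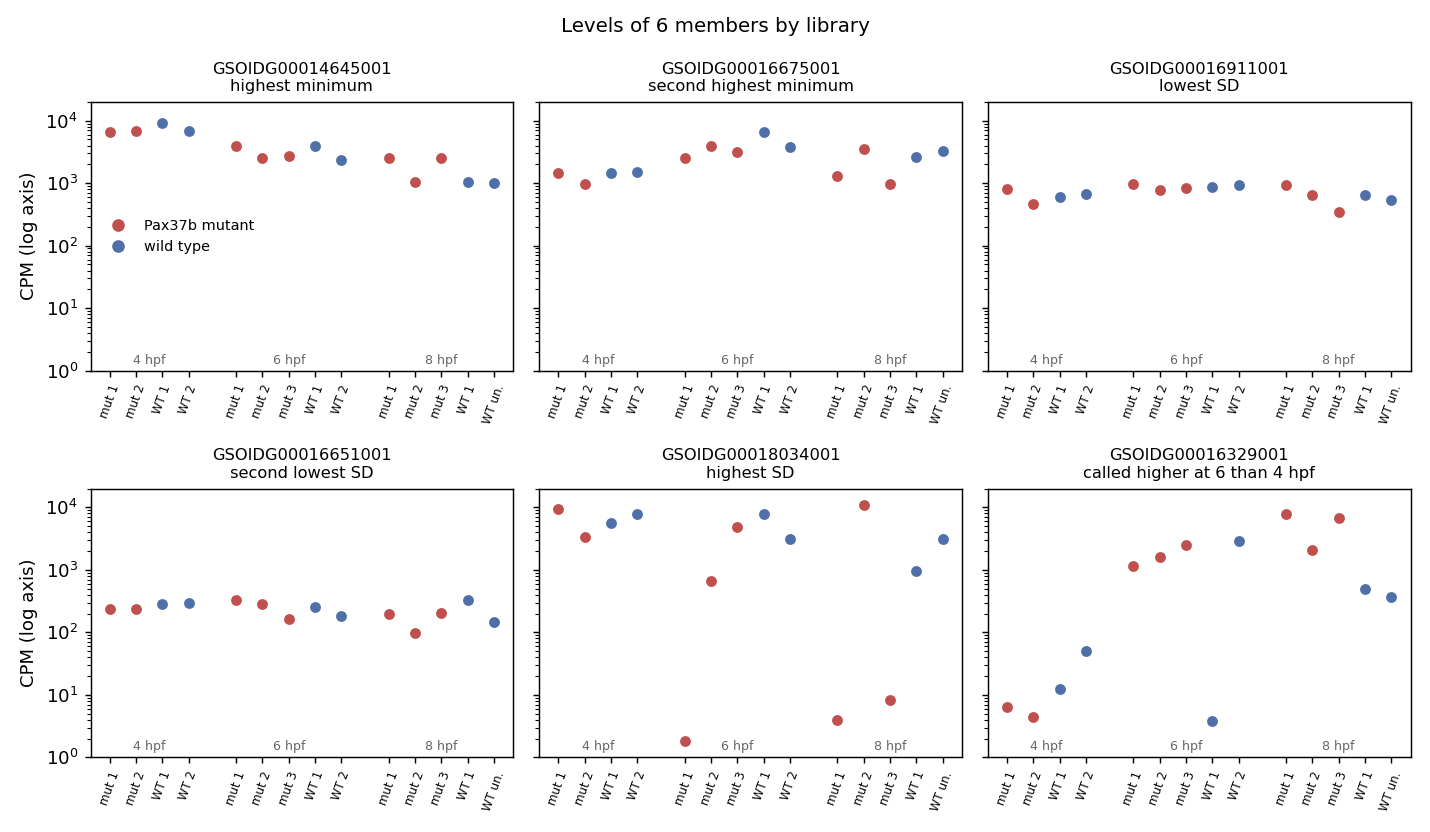
CPM (log axis) of 6 of the 200 genes in each library, mutants in red and wild type in blue, un. being the unnumbered library. GSOIDG00016911001 stays between 342 and 958 CPM, while GSOIDG00018034001 runs between 1.84 and 10727 CPM and GSOIDG00016329001 is under 51 CPM in all 4 hpf libraries.

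Many of the 200 genes carried consecutive identifiers. In all 33 of them (16.5%) had a neighbour by number among the 200, against 1.99% of the other identifiers, and they formed 14 runs, 10 pairs, 3 triples and 1 run of 4. Whether identifier order follows the chromosome was not analysed here. A ratio of 2 genes within a library needs no scaling, and its spread was compared over all pairs of the 200. The SD of the log2 ratio over the 14 libraries had a median of 2.02 for the 19 neighbouring pairs and 2.76 for the 19881 other pairs. All pairs share the 14 libraries and many share a gene, so these are descriptions. The 3 pairs with the steadiest ratio of all were neighbours. These genes were singled out after their values were seen.

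The steadiest pair was GSOIDG00014645001, described above, with GSOIDG00014646001. The second was at 579 and 586 CPM in mutants and 795 and 614 CPM in wild type at 4 hpf, at 357, 215 and 270 CPM in mutants and 363 and 219 CPM in wild type at 6 hpf, and at 251, 102 and 226 CPM in mutants and 95.6 and 87.2 CPM in wild type at 8 hpf. The first had 11.2 times the CPM of the second at the median, with a lowest ratio of 9.93 and a highest of 11.9. The SD of the log2 ratio was 0.077. The first gene varied 9.13-fold and the second 9.11-fold over the libraries while the ratio stayed within those limits. Neither gene had a fractional count in any library.

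In the next pairs reads could have been divided between the genes. GSOIDG00016288001 and GSOIDG00016289001 had ratios from 0.548 to 1.02 (SD of the log2 ratio 0.31) and fractional counts in 14 and 13 libraries. GSOIDG00008791001 and GSOIDG00008790001 had ratios from 1.08 to 2.86 (SD 0.41), with fractional counts in 13 libraries each. Both belong to the run of 4, whose other members, GSOIDG00008789001 and GSOIDG00008792001, had fractional counts in 14 libraries each. Among all 200 genes 52 (26%) had a fractional count in some library, against 17.9% of all identifiers. A value counted as fractional when it lay more than 0.01 from a whole number. The bases are unlike, since all 200 had a count in every library and 3827 of the 17212 identifiers did. Other neighbours were far apart, up to an SD of 3.15 for GSOIDG00009448001 and GSOIDG00009447001, whose ratio ran from 0.135 to 874.

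**Figure D4:**
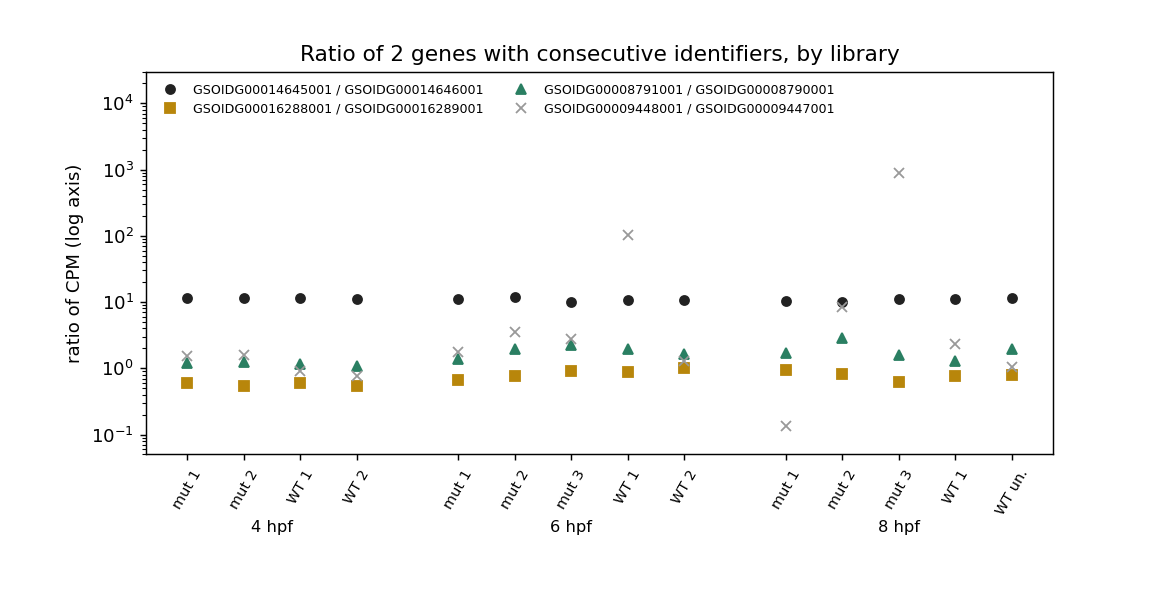
Ratio of the CPM of 2 genes with consecutive identifiers in each library (log axis), for the 3 steadiest pairs and the least steady one of 19 (grey crosses); mut is mutant, WT wild type and un. the unnumbered library. The ratio of GSOIDG00014645001 to GSOIDG00014646001 stays between 9.93 and 11.9 in all 14 libraries.

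Between 4 and 6 hpf both the calls and the median change, of the 200 as of the whole table, depended on the scaling. TMM factors lay between 1.62 and 2.25 in the 4 hpf libraries and between 0.33 and 0.83 in those of 6 hpf, so scaling differed by stage. With edgeR's quasi-likelihood test over both genotypes, 4 of the 200 genes were called, all higher at 6 hpf, where 8.63% of the 12850 genes tested were called and 4.75% were called higher at 6 hpf. The median log2 change of the 200 was 2.30 against 1.69 for all genes tested. On total counts without scaling factors these medians were 0.51 and 0.13, and 1 of the 200 was called, against 3.62% of all genes. limma-voom also called 1, against 4.23%, and DESeq2, with its own size factors, 112, where it called 24.2% of all identifiers. Unadjusted p-values under 0.05 numbered 30 (15%), all higher at 6 hpf, against 31.1% of all genes tested in either direction. Leaving out single libraries left 0 to 2 of the 200 called, against 0% to 1.54% of all genes, 0 without any one of the 4 or 6 hpf libraries and also 0 without the first mutant or first wild-type library of 8 hpf.

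GSOIDG00016329001 changed most of the 4. It was at 1140, 1592 and 2520 CPM in mutants and 3.87 and 2907 CPM in wild type at 6 hpf, against 6.34 and 4.37 CPM in mutants and 12.5 and 50.6 CPM in wild type at 4 hpf. All but 1 of the 6 hpf libraries were above all 4 hpf libraries, the first wild-type pool being below all of them. With RLE scaling the stages did not overlap. The log2 change was 8.03 (with SE 2.01, edgeR's adjusted p = 0.0426), and it passed in 7 of 20 alternatives. Without the second wild-type library of 6 hpf it was 4.54 (adjusted p = 0.278), and over all alternatives it ran from 4.54 to 9.25. Its counts were fractional in 9 libraries. GSOIDG00017629001 was at 2579, 2077 and 659 CPM in mutants and 801 and 3066 CPM in wild type at 6 hpf, against 97.9 and 97.2 CPM in mutants and 302 and 310 CPM in wild type at 4 hpf. The stages did not overlap under any of the 3 scalings. Its log2 change was 5.32 (with SE 1.68, edgeR's adjusted p = 0.0452), and it passed in 1 of 19 alternatives, which ran from 3.40 to 7.68.

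The other called genes were GSOIDG00017929001 (log2 change 4.39 with SE 1.25, edgeR's adjusted p = 0.0426) and GSOIDG00007814001 (4.52 with SE 1.39, edgeR's adjusted p = 0.0436), each with 1 library of 6 hpf inside the range of 4 hpf by CPM on total counts. With RLE scaling the stages lay apart for both, and with TMM scaling for the second. They are named because the count is small. The first passed in 3 of 19 alternatives (2.48 to 6.87) and the second in 4 of 20 (3.11 to 6.27). In the other direction no gene passed. GSOIDG00005604001 had the smallest p, at 392, 487 and 151 CPM in mutants and 296 and 281 CPM in wild type at 6 hpf, against 4012 and 5810 CPM in mutants and 4645 and 4026 CPM in wild type at 4 hpf. The stages lay apart by CPM and with TMM scaling and overlapped with RLE scaling, and the test gave a log2 change of -2.23 (with SE 1.499, edgeR's adjusted p = 0.305), and upper-quartile factors turned its sign.

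Counted by libraries without overlap, 22 of the 200 genes (11%) were higher in every 6 hpf library than in any 4 hpf library, against 4.57% of all genes tested, and 21 (10.5%) were lower, against 7.65%. This balance changed with the scaling. With TMM-scaled CPM 78 of the 200 (39%) were higher and 4 (2%) lower, against 8.39% and 4.12% of all genes tested. With RLE-scaled CPM 100 (50%) were higher and 0 lower, against 9.08% and 2.52%.

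Between 6 and 8 hpf edgeR called 0 of the 200 genes and 0% of the 12850 tested. Of the 200, 6 (3%) had an unadjusted p under 0.05, all lower at 8 hpf, against 21.7% of all genes tested in either direction. limma-voom called 1 of the 200, against 1.54% of all genes, and DESeq2 15, where DESeq2 called 15.2% of all identifiers. The median log2 change of the 200 was -0.92 against -0.19 for all genes tested, and -0.27 against 0.32 on total counts. With RLE factors the median of the 200 was 0.01, so its direction depended on scaling. By CPM 4 of the 200 (2%) were higher in every 8 hpf library, against 2.63% of all genes tested, and 5 (2.5%) were lower, against 0.63%. With TMM scaling 0 were higher and 12 (6%) lower, against 2.37% and 0.942% of all genes tested, and with RLE scaling 4 (2%) were higher and 1 (0.5%) lower, against 3.56% and 0.381%.

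GSOIDG00017929001 reached the highest level seen among the 200. It was at 14065, 5858 and 13411 CPM in mutants and 20433 and 30753 CPM in wild type at 8 hpf, against 3716, 3226 and 2423 CPM in mutants and 257 and 3122 CPM in wild type at 6 hpf. The stages did not overlap on total counts and overlapped under TMM or RLE scaling, and the log2 change of 2.15 did not pass (with SE 1.09, edgeR's adjusted p = 0.24). Without the second wild-type library of 6 hpf it was 3.72, and without the others 1.66 to 3.22. GSOIDG00000026001 was at 10.2, 8.50 and 3.28 CPM in mutants and 51.4 and 4.62 CPM in wild type at 8 hpf, against 52.3, 386 and 184 CPM in mutants and 776 and 636 CPM in wild type at 6 hpf. Its log2 change was -5.09 (with SE 1.98, edgeR's adjusted p = 0.148), and it passed in 2 of 20 alternatives.

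Over the 6 groups, by CPM on total counts, no group held most of the extremes. The group mean was highest in mutants at 4 hpf for 23 genes, in wild type at 4 hpf for 31, in mutants at 6 hpf for 36, in wild type at 6 hpf for 40, in mutants at 8 hpf for 27 and in wild type at 8 hpf for 43. It was lowest in mutants at 4 hpf for 51 genes and in mutants at 8 hpf for 47, against 19 in wild type at 4 hpf and 35 in wild type at 8 hpf. At 6 hpf it was lowest in mutants for 11 genes and in wild type for 37. These counts were not repeated with TMM or RLE scaling or over all genes. TMM factors were 1.62 to 2.25 at 4 hpf and 0.33 to 0.83 at 6 hpf. No order of stages or genotypes is therefore read from the counts. The mean of mutants at 8 hpf includes the outlying library, mutant replicate 3, whose part was not tested.

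None of the 200 genes was called between genotypes by edgeR at any stage. The biological coefficient of variation, edgeR's spread between pools relative to the mean, was 1.31 at 4 hpf, 1.83 at 6 hpf and 1.45 at 8 hpf. With 2 or 3 pools per group even large changes could fail to pass, so 0 calls do not show equal levels. At 4 hpf edgeR called 0 of the 200, where 0.0721% of the 6933 genes tested were called. Unadjusted p-values under 0.05 numbered 8 (4%), 5 higher and 3 lower in mutants, against 6.06% of all genes tested. limma-voom and DESeq2 also called 0 of the 200, where they called 0.0577% of all genes and 2.68% of all identifiers. Without a filter on low counts 2 of the 200 were called (0.225% of all genes), without the second mutant library 1 (0.222%), and with a replicate block 2 (0.274%), all lower in mutants. The median log2 change of mutants over wild type was 0.04 for the 200 and 0.06 for all genes tested. On total counts these medians were -0.22 and -0.18 and with upper-quartile factors -0.13 and -0.06, so their sign depended on scaling.

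GSOIDG00016622001 had the smallest p of the genes lower in mutants at 4 hpf, at 29.6 and 45.4 CPM in mutants against 671 and 594 CPM in wild type. The groups did not overlap, and the log2 change was -3.81 (with SE 0.71, edgeR's adjusted p = 0.434). It passed with the replicate block (edgeR's adjusted p = 0.0443) and did not pass in most of the alternatives. At 6 hpf it was at 1.84, 86.6 and 8.91 CPM in mutants and 252 and 952 CPM in wild type, again without overlap, and at 8 hpf at 13.3, 23.6 and 24.3 CPM in mutants and 18.0 and 7.05 CPM in wild type, with overlap except under RLE scaling, where mutants were higher. Its counts were fractional in 10 libraries. GSOIDG00007035001 had the smallest p of those higher in mutants, at 605 and 397 CPM in mutants against 124 and 38.8 CPM in wild type (log2 change 2.85 with SE 0.80, edgeR's adjusted p = 0.777), with fractional counts in all 14 libraries.

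At 6 hpf edgeR called 0 of the 200 genes and 0% of the 6685 tested, and 1 of the 200 (0.5%) had an unadjusted p under 0.05, against 5.1% of all genes. limma-voom called 0 of the 200, against 2.29% of all genes. DESeq2 called 11, 10 of them higher in mutants, and 12.8% of all identifiers in either direction. GSOIDG00003837001 was at 57.0, 34.1 and 19.5 CPM in mutants and 1975 and 636 CPM in wild type, without overlap (log2 change -5.31 with SE 2.55, edgeR's adjusted p = 0.661). GSOIDG00015987001 was at 1206, 1.88 and 574 CPM in mutants and 2.49 and 11.6 CPM in wild type, the second mutant library being below both wild-type libraries (log2 change 6.73 with SE 3.67, edgeR's adjusted p = 0.661). DESeq2 passed both. The change of GSOIDG00015987001 ran from 3.05 to 8.15 over the alternatives.

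At 8 hpf edgeR again called 0 of the 200 genes and 0% of the 8704 tested. Unadjusted p-values under 0.05 numbered 7 (3.5%), all lower in mutants, against 30% of all genes tested in either direction. limma-voom called 0 of the 200 and 0% of all genes. DESeq2 called 22 of the 200, 3 higher and 19 lower, and 22.1% of all identifiers in either direction. The median log2 change was -1.11 for the 200 and -0.02 for all genes tested. On total counts these were -0.15 and 0.88, and with upper-quartile factors 3.29 and 4.46, so the sign of the median depended on scaling while the gap between the 200 and all genes was -1.03 to -1.17 under the 4 scalings run. With the unnumbered wild-type library left out, 1 wild-type library remained, so the calls of that fit are not counted here.

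GSOIDG00005831001 had the smallest p at 8 hpf, at 2.10, 2.90 and 2.79 CPM in mutants against 68.7 and 1079 CPM in wild type. The groups did not overlap (log2 change -9.02 with SE 3.18, edgeR's adjusted p = 0.166), and it did not pass in most of the alternatives. With the unnumbered wild-type library left out its log2 change was -4.45, and with upper-quartile factors -4.98. It was also apart at 4 hpf, at 43.4 and 72.0 CPM in mutants against 202 and 251 CPM in wild type, and overlapped at 6 hpf, at 37.1, 283 and 83.4 CPM in mutants and 86.5 and 986 CPM in wild type, where RLE scaling put mutants lower. GSOIDG00003139001 was at 2201, 546 and 1190 CPM in mutants against 50.2 and 23.6 CPM in wild type at 8 hpf, all mutants higher (log2 change 4.53 with SE 2.78, edgeR's adjusted p = 0.258, 3.55 to 9.26 over the alternatives).

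The genotypes were also compared by libraries that did not overlap. At 4 hpf 22 of the 200 genes (11%) were higher and 64 (32%) lower in both mutant libraries by CPM, against 13% and 22% of all genes tested. With TMM scaling it was 40 (20%) higher and 34 (17%) lower, against 17.2% and 18.0% of all genes. With RLE scaling it was 55 (27.5%) higher and 23 (11.5%) lower, against 18.98% and 16.2%. The balance turned with the scaling, for the 200 and for the whole table between total counts and RLE. At 6 hpf 25 (12.5%) were higher and 23 (11.5%) lower, against 7.61% and 10.2%. Under TMM scaling they were 29 (14.5%) and 14 (7%), against 9.41% and 9.86%, and under RLE scaling 9 (4.5%) and 14 (7%), against 6.49% and 11.6%.

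At 8 hpf 14 genes (7%) were higher and 40 (20%) lower in all 3 mutant libraries, against 33.7% and 10.8% of all genes tested. The share higher was 4.5% with TMM scaling (25.8% of all genes) and 5% with RLE scaling (29.0%). The share lower was 31.5% with TMM scaling (12.8% of all genes) and 11.5% with RLE scaling (10.3%). Without the third mutant library 29 of the 200 were higher (14.5% against 36.6%) and 50 lower (25% against 12.2%). The low levels of the third mutant library and the difference in level between the 200 genes and the whole table went along with these counts, and their part was not tested.

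**Figure D5:**
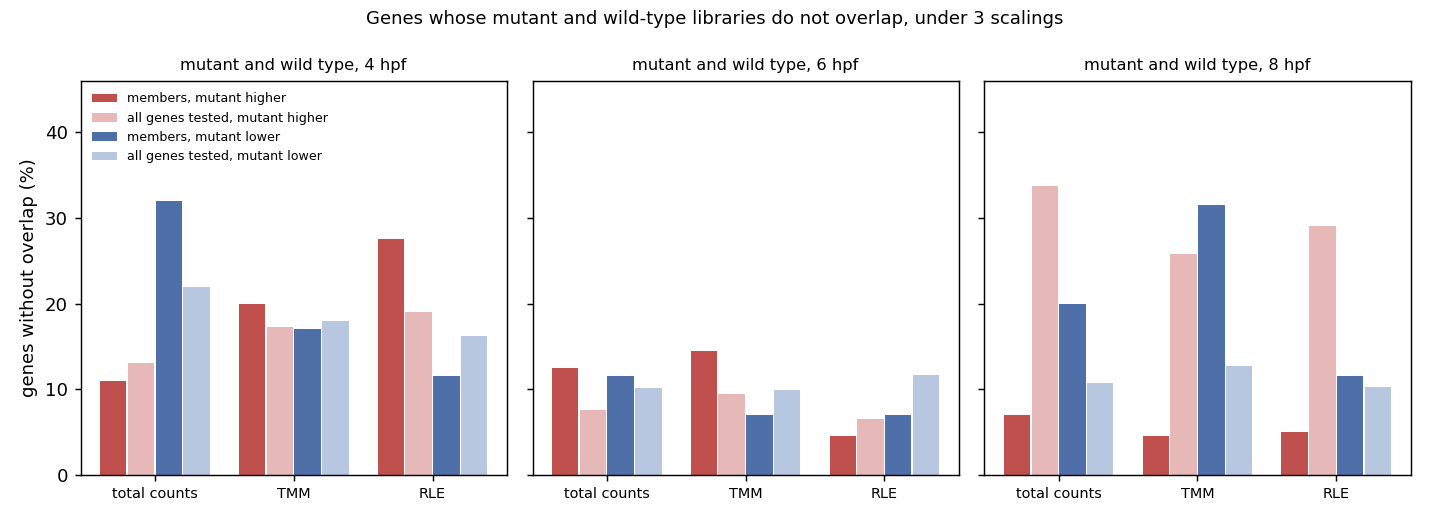
Share of genes whose mutant libraries all lie above (red) or below (blue) the wild-type libraries of the stage, for the 200 genes (dark bars) and all genes tested (pale bars), with CPM on total counts and with TMM and RLE scaling. The balance at 4 hpf turns from 32% lower on total counts to 27.5% higher with RLE scaling.

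In a fit of the 14 libraries that held stage fixed, edgeR called 0 of the 200 genes, where 0.179% of the 12850 genes tested were called. A single one of the 200 (0.5%) had an unadjusted p under 0.05, against 8.92% of all genes tested. limma-voom called 0 of the 200, against 0.0467%. DESeq2 called 2, both lower in mutants, and 7.79% of all identifiers in either direction. The gene with edgeR's unadjusted p under 0.05 was GSOIDG00005831001 (log2 change -4.07 with SE 1.98, edgeR's adjusted p = 0.552). Its log2 change was -2.37 with the unnumbered wild-type library left out and -1.96 with a replicate block. In the other direction GSOIDG00015382001 had the smallest p (log2 change 1.78 with SE 1.49, edgeR's adjusted p = 0.806), and its genotypes overlapped at each stage, except at 4 hpf with RLE scaling, where mutants were higher. Without the first mutant library of 8 hpf it was 0.95, and over all alternatives it ran from 0.24 to 2.63.

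By CPM 3 of the 200 genes (1.5%) had every mutant library below both wild-type libraries at each of the 3 stages, against 0.327% of all genes tested, and 0 had every one above, against 0.148%. With TMM scaling and with RLE scaling 1 gene (0.5%) was lower and 0 higher, against 0.272% and 0.257% of all genes for lower. The single gene was GSOIDG00002116001 under TMM and GSOIDG00005831001 under RLE, and neither is among the 3, which overlapped at 6 hpf under both scalings. The 3 genes are named because the count is small. GSOIDG00010993001 was at 7.10 and 23.5 CPM in mutants and 44.6 and 214 CPM in wild type at 4 hpf, at 1058, 465 and 46.8 CPM in mutants and 1433 and 1308 CPM in wild type at 6 hpf, and at 564, 80.8 and 4.56 CPM in mutants and 766 and 897 CPM in wild type at 8 hpf. GSOIDG00017780001 was at 39.3 and 28.9 CPM in mutants and 52.4 and 117 CPM in wild type at 4 hpf, at 161, 59.5 and 147 CPM in mutants and 239 and 572 CPM in wild type at 6 hpf, and at 157, 57.6 and 3.10 CPM in mutants and 365 and 327 CPM in wild type at 8 hpf. GSOIDG00015450001 was at 911 and 693 CPM in mutants and 966 and 1346 CPM in wild type at 4 hpf, at 873, 1978 and 2484 CPM in mutants and 2574 and 3238 CPM in wild type at 6 hpf, and at 2.33, 470 and 7.30 CPM in mutants and 682 and 958 CPM in wild type at 8 hpf. The gaps were narrow at 4 or 6 hpf for each of them, and none had an edgeR adjusted p under 0.05 in any comparison of genotypes.

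Whether the genotype difference itself changed with stage was tested with a genotype by stage term. edgeR called 0 of the 200 genes and 0% of the 12850 tested, 5 of the 200 (2.5%) had an unadjusted p under 0.05, against 22.8% of all genes. limma-voom called 0 of the 200, against 0.125% of all genes, and DESeq2 7, where it called 6.28% of all identifiers. Sides at 4 and 8 hpf were compared over the 4747 genes tested at both stages, by CPM on total counts. Of the 200, 13 (6.5%) were lower in all mutant libraries at both stages, against 3.39% of all, and 0 were higher at both, against 3.10%. Those lower at both numbered 13 with TMM scaling (6.5%, against 3.22%) and 3 with RLE scaling (1.5%, against 2.38%). Higher at both were 0 under either, against 3.01% and 4.02%. In 8 of the 200 (4%) the mutants were lower at 4 and higher at 8 hpf, against 5.46%, and in 4 (2%) they were higher at 4 and lower at 8 hpf, against 1.77%. With TMM scaling the genes that changed sides this way numbered 5 (2.5%, against 3.33%) and 16 (8%, against 2.86%), and with RLE scaling 5 (2.5%, against 3.58%) and 9 (4.5%, against 2.38%).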

How the data were processed

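Polyadenylated RNA of pooled whole animals was sequenced with a low-input kit (per the labels' protocols). For each stage the authors deposited a table of estimated counts by identifier, not scaled to depth and not pooled over replicates. kallisto 0.46.0 and DESeq2 are named in the submitters' processing notes, while index, annotation and filters were not stated in the labels or files. Counts of similar gene copies are divided by kallisto and so are uncertain. One wild-type column at 8 hpf has a number that no sample title has, and was used as an unnumbered replicate.

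The tables were joined by identifier and 0 of 17212 matched the 17178 genes of the reference table, so lists of named functions were not run and no sequences are shown. Estimated counts were rounded for testing. edgeR 4.0.16 (R 4.3.3) was run on whole tables with filterByExpr, TMM factors and the quasi-likelihood F test, two-sided, with Benjamini-Hochberg adjustment over all genes tested and a threshold of 0.05. Standard errors are the log2 fold change divided by the root of F. Genotypes within a stage were fitted on that stage's libraries, and other comparisons on all 14. Alternatives were RLE, upper-quartile and no factors, no filter, limma-voom (limma 3.58.1) and DESeq2 1.42.0 on all identifiers. Others were 1 fit of all 14 libraries for each stage, a block for replicate number and fits with 1 library left out. Within a stage, some of the last left 1 library in a group, whose spread was then not measured. DESeq2 shares are of all 17212 identifiers, 253 of them without a count in any library. Their base is therefore unlike that of the edgeR and limma-voom shares.

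Simulated counts with known changes were run through the edgeR fits as a check of the code. Recovery was required only at a spread between libraries far below that of these data, so the check does not show the power here. No library repeated another of its group (chi-square per degree of freedom over the 200 genes at least 184). The labels mention no molecular identifiers, so PCR copies cannot be told from separate molecules. The genes and rules were chosen with earlier results of these data known. Named genes were the 4 with the highest minimum CPM, the 2 with the lowest and the 2 with the highest SD of log2 CPM, the last gene inside the threshold and, per comparison, up to 2 called in each direction or, where none was called, the 1 with the smallest p. Genes named for other reasons are marked in the text. Python 3.11.15, numpy 2.4.6, pandas 2.3.3 and matplotlib 3.10.9 were used for levels and plots.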

Additional observations from a re-analysis of the deposited data

Results flagged for a closer look

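In 4 of the genes named above every mutant library lay on one side of wild type at one stage and on the other side at another, by CPM on total counts. In none of them did the test of that difference between stages pass. GSOIDG00015987001 was higher in mutants at 4 hpf (128 and 136 CPM against 7.13 and 44.6 CPM in wild type) and lower at 8 hpf (554, 5.31 and 16.1 CPM against 639 and 587 CPM), with an edgeR adjusted p of 0.244 for the interaction, and with RLE scaling it overlapped at 8 hpf. GSOIDG00003139001 was lower in mutants at 4 hpf (370 and 280 CPM against 672 and 729 CPM) and at 6 hpf (889, 1439 and 497 CPM against 2344 and 1494 CPM), and higher at 8 hpf (2201, 546 and 1190 CPM against 50.2 and 23.6 CPM), with an edgeR adjusted p of 0.338, and under TMM or RLE scaling it overlapped at 6 hpf. GSOIDG00016329001 was lower in mutants at 4 hpf (6.34 and 4.37 CPM against 12.5 and 50.6 CPM) and higher at 8 hpf (7829, 2097 and 6716 CPM against 501 and 371 CPM), with an edgeR adjusted p of 0.401, and both sides were the same under TMM and RLE scaling. GSOIDG00014646001 was lower in mutants at 4 hpf (579 and 586 CPM against 795 and 614 CPM) and higher at 8 hpf (251, 102 and 226 CPM against 95.6 and 87.2 CPM), with an edgeR adjusted p of 0.997. Under TMM or RLE scaling it overlapped at both stages, and edgeR's log2 changes were -0.03 (SE 0.46) at 4 hpf and 0.26 (SE 2.51) at 8 hpf.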

How the results depend on the processing

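Shares in brackets are of all genes tested. At 4 hpf edgeR called 2 of the 200 between genotypes without a low-count filter (0.225%) and 2 with a replicate block (0.274%). Leaving out a library there left 1 in its group, so those calls are not counted. At 8 hpf leaving out single mutant libraries gave 0 (0.099% to 0.347%), and upper-quartile factors 0 (29.0%). DESeq2 called 11 at 6 hpf (12.8% of all identifiers), 22 at 8 hpf (22.1%), 2 over all stages (7.79%) and 7 for the interaction (6.28%). For 6 against 4 hpf, RLE factors gave 8 called genes (13.1%), upper-quartile factors 0 (0%), total counts 1 (3.62%), limma-voom 1 (4.23%), DESeq2 112 (24.2% of all identifiers), and leaving out single libraries 0 to 2 (0% to 1.54%). For 8 against 6 hpf limma-voom gave 1 (1.54%) and DESeq2 15 (15.2% of all identifiers). The cause of these differences was not tested. Upper-quartile factors turned the change of GSOIDG00005604001 between 6 and 4 hpf to 0.66 on the log2 scale.

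Choosing the genes by their median CPM kept 111 of the 200, and by the lowest of the 6 group means 115. Leaving out single libraries kept 168 to 199, TMM-scaled CPM 184, thinning 181 and keeping the left-out range in 197.

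Scalings and the left-out library below were chosen after seeing the data. With TMM, genes not overlapping, higher and lower in mutants, numbered 40 and 34 at 4 hpf (17.2% and 18.0% of all genes tested). They were 29 and 14 at 6 hpf (9.41% and 9.86%) and 9 and 63 at 8 hpf (25.8% and 12.8%). With RLE they were 55 and 23 (18.98% and 16.2%), 9 and 14 (6.49% and 11.6%), and 10 and 23 (29.0% and 10.3%). For 6 against 4 hpf they were 78 and 4 with TMM (8.39% and 4.12%) and 100 and 0 with RLE (9.08% and 2.52%). For 8 against 6 hpf they were 0 and 12 with TMM (2.37% and 0.942%) and 4 and 1 with RLE (3.56% and 0.381%). Over all stages 1 was lower with either (0.272% and 0.257%). Without the third mutant library at 8 hpf they were 29 and 50 between genotypes at 8 hpf (36.6% and 12.2% of all genes), 6 and 10 for 8 against 6 hpf (3.07% and 0.872%), and 0 and 4 over all stages (0.195% and 0.374%), and the mean of the mutants' median levels at 8 hpf was 303 CPM.

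Replicate numbers gave no pairing, since deviations of same-numbered libraries had correlations of -0.0192 (4 hpf), -0.0189 and 0.00232 (6 hpf) and 0.0284 (8 hpf). With the block 0 of the 200 and 0% of all genes tested were called at 6 hpf, over all stages and for the interaction. At 8 hpf no residual degrees of freedom were left for it, and stages share no pairing by number. At 4 hpf, where totals were lowest, the lowest count of any of the 200 genes was 6.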
